A study of Mus musculus with 4 samples.

Results

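The liver X receptors (LXR) are nuclear receptors that sense oxysterols, and peaks of accessible chromatin were examined at 10 genes of this pathway in the mouse macrophage line RAW264.7. The genes were given by name. They are the receptor genes Nr1h3 (LXRα) and Nr1h2 (LXRβ), the genes of their partners Rxra and Rxrb, and 6 genes that LXR is known to induce, namely Abca1, Abcg1, Apoe, Mylip, Srebf1 and Lpcat3. All 10 were found in the annotation, among 21436 protein-coding genes for which a strand was known. Accessibility was measured by ATAC-seq, in which the transposase Tn5 inserts adapters into open DNA. A pair of groups of wild-type RAW264.7 cells was compared, and both were given 25 ug/mL DIL-oxLDL, oxidized low-density lipoprotein with a fluorescent dye, over 24 h. The control group had DMSO in addition (2 libraries) and the esculetin group 40 ug/mL of the coumarin esculetin (2 libraries). Since this is a single cell line in culture, and nothing in the labels says that the libraries came from separate cultures, the spread between libraries may be technical.

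LXR binds DNA together with a retinoid X receptor (RXR) and is held silent by corepressors until an oxysterol binds. In lipid-loaded macrophages the pair switches on ABCA1 and ABCG1, the transporters that pass cholesterol to lipoproteins, and apolipoprotein E, which accepts it. It also induces MYLIP, a ubiquitin ligase of sterol metabolism, SREBP1, the main activator of fatty acid synthesis, and LPCAT3, which makes polyunsaturated phospholipids. The comparison asks whether accessibility at these genes differs when oxLDL-loaded cells are given esculetin.

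For each gene, every peak with a summit between 10 kb before the 5′ end and the 3′ end was read in each library, and a peak with an annotated transcription start no more than 1 kb from its summit was placed at the promoter. Peak strength was expressed as the percentile of the peak's −log10 p within its own list, where 100 is the strongest peak. Below, a promoter with such a peak is called open, and values are given for replicate 1 and then replicate 2. The control lists were the longer ones, with 19595 and 27833 peaks against 8677 and 12792 with esculetin. The genome-wide background coverage, which follows the sequencing depth, was 6.51 and 4.08 in the controls and 4.97 and 4.1 with esculetin. The longest list, that of control replicate 2, thus came with the lowest background, and list length did not follow the background. The weakest peak of a list had a summit coverage of 13 to 17. A gene without a peak may therefore still be accessible below that level. Control replicate 2 stood apart in that 9.11% of its peaks lay in the last 10% of the length of genes of at least 5 kb, against 2.07% to 4.04% in the other libraries. As a check of the cell type, promoter peaks were sought at 8 macrophage genes. They were found at 4 and 5 of these in the controls, where 40.7% and 42.1% of all coding genes had one, and at 1 and 3 with esculetin, where 30.1% and 37.9% had one, so the counts with esculetin were not above that share. Spi1, which encodes the macrophage regulator PU.1, had one in every library, whereas Csf1r, Adgre1 and Itgam had none in any. None of 10 marker genes of other cell types had a promoter peak in any library.

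Promoter sequences are shown first for the sites on which the comparison turns, in lower case from 5′ to 3′ on the strand of the gene, with the matches to searched motifs in capitals. They are the bases just before the start site, or for Abca1 before the first of its starts, and were taken from the RefSeq promoter table for GRCm38.p6, whose chromosomes are those of mm10. The Rxrb stretch (chr17:34031691-34031811) is all of the DNA between the starts of Rxrb and the divergent gene Slc39a7 and was called open only with esculetin. The internal Srebf1 start at 60220627 (chr11:60220628-60220777) was also called only with esculetin. A further internal Srebf1 start at 60210471 (chr11:60210472-60210621) and the start of Mylip (chr13:45389592-45389741) were open in every library. Abca1 (chr4:53159989-53160138) is shown because its promoter was called in 1 library alone.
Rxrb: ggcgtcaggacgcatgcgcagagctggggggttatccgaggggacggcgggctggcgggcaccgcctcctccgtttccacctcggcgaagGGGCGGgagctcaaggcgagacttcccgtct
Srebf1 at 60220627: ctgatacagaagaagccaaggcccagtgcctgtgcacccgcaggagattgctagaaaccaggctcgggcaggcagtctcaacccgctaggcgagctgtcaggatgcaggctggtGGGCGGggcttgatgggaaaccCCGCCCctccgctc
Srebf1 at 60210471: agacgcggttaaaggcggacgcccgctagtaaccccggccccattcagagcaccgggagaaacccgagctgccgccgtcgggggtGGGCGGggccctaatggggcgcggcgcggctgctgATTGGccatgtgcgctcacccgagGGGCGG
Mylip: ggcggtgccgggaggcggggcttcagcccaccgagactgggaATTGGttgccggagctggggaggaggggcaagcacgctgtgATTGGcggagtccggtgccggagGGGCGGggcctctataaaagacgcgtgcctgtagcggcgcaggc
Abca1: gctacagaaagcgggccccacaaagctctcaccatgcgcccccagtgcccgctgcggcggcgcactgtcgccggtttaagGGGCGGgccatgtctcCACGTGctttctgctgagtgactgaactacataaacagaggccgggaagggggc

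All 5 stretches held a GC box (GGGCGG, the site of SP1-type factors), and the CCAAT box, the site of NFY, stood in the Mylip stretch and in the Srebf1 stretch at 60210471. Over the full promoter windows, from 250 bases before to 50 after a start, 9 members were listed with 16 starts. Abcg1 was not listed. On either strand, and with overlaps between motifs allowed, GGGCGG was found in 8 of the 16 windows and in 35.7% of all 32851 windows. CCAAT was found in 4 of them and in 37.4% of all windows. The nuclear receptor element AGGTCA occurred in 1 of them, an internal start of Rxra, and in 16.3% of all windows, and its direct repeat with a spacer of 4 bases, the classical LXR element, in none of them and in 0.0152% of all. The E-box CACGTG stood in the Abca1 window alone (7.15% of all). No window of these genes held TGTGGT (RUNX, 16.8% of all), TTGCNNAA (C/EBP, 10.8%) or TGACTCA (AP-1, 5.2%). These are matches of letters near the start and not measured binding sites.

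The promoters of the LXR pathway fell into 3 kinds. Mylip, Srebf1 and Lpcat3 were open in all 4 libraries, Rxra and Apoe had no promoter peak in any, and the other 5 genes differed between libraries. Of the 10 genes, 5 and 7 had an open promoter with DMSO, and 4 and 5 with esculetin. Of all coding genes, 40.7% and 42.1% were open in the DMSO libraries, and 30.1% and 37.9% in the others. The group means were 6.0 ± 1.41 genes in the controls and 4.5 ± 0.71 with esculetin (SD, n = 2 each), so the difference of -1.5 genes was close to the SD of the controls and the groups met at 5. It was -0.5 without control replicate 2 and -2.5 without control replicate 1. When only the 8581 strongest peaks of every list were kept, the number of genes was 5 and 2 in the controls and 4 and 5 with esculetin, so the sign of the difference turned.

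**Figure D1:**
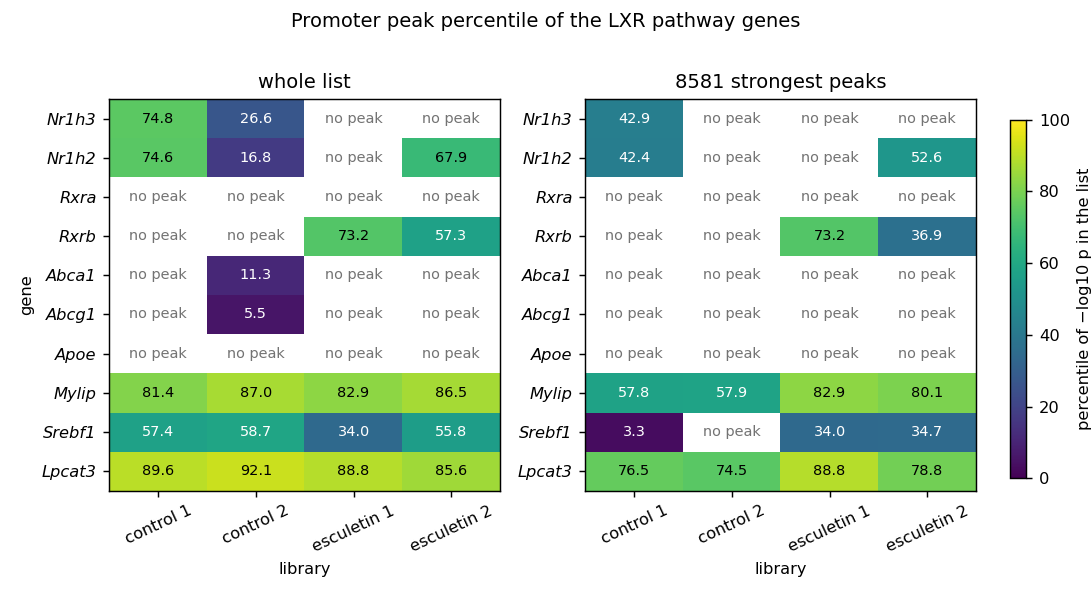
Percentile of the strongest promoter peak of each of the 10 genes (rows) in the 4 libraries (columns), in the whole list (left) and among the 8581 strongest peaks of each library (right), with "no peak" where none was called. Mylip, Srebf1 and Lpcat3 have a value in every library on the left, and Rxrb has a value in the esculetin libraries alone on both sides.

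Of the receptor genes, Nr1h3 (mm10 chr2:91184061-91202829, minus strand), which encodes the LXR form typical of macrophages and liver, had a peak at its curated starts in control replicate 1 alone. That summit lay 250 bp into the gene from the nearest start, with a percentile of 74.8 and a coverage of 43. Control replicate 2 had a promoter peak only at the far 5′ end of the longest Nr1h3 model (percentile 26.6, coverage 22). That summit was 97 bp from a start of Acp2, a neighbour read in the opposite direction, so it cannot be given to either gene. A weak peak before the curated starts was called in control replicate 2 (1705 bp before, percentile 4.3) and in esculetin replicate 2 (1949 bp before, percentile 3.9), and these overlapped. In esculetin replicate 1 no Nr1h3 peak was called. The pattern of promoter calls in both controls alone was shared by 3.75% of coding genes. At Nr1h3 a promoter call in both controls and in neither esculetin library thus rested on peaks at different starts, and with curated starts alone it was found in control replicate 1 only.

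At Nr1h2 (chr7:44549616-44553968, minus strand), which encodes the widely expressed LXRβ, a promoter peak was found in every library except esculetin replicate 1, as at 6.15% of coding genes. The controls had percentiles of 74.6 and 16.8, and the value of 67.9 in esculetin replicate 2 lay between them. The place of the summit also varied. It lay 444 bp into the gene in control replicate 1 and 2 bp after the start in esculetin replicate 2. Control replicate 2 had 2 peaks, with summits 498 bp into the gene and 28 bp before the start. The region inside the gene was called in both controls and no esculetin library, as were 13.9% of all merged regions, whereas the region over the start was shared by control replicate 2 and esculetin replicate 2.

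Among the RXR genes, Rxrb was called in one group alone and Rxra in neither. At Rxrb (chr17:34031812-34038403, plus strand), which encodes RXRβ, both esculetin libraries had a promoter peak, with summits 59 and 61 bp before the start, percentiles of 73.2 and 57.3, and coverages of 51 and 42. No control library had one. Only 0.42% of coding genes showed that pattern, or 4.47% when the lists were cut to equal length, where Rxrb kept it. Each control library had a peak further upstream, 3743 bp before the start in replicate 1 (rank 10961 of 19475 peaks) and 2924 bp before it in replicate 2 (rank 11082 of 27731 peaks). The former lay 14 bp from the start of H2-Ke6, and the latter lay inside Slc39a7 and 833 bp from the start of H2-Ke6. Both were thus within 1 kb of the start of another gene. If the local background at Rxrb had been that of these neighbouring peaks (10.9 and 10.72), a coverage of 25 and 24 would have sufficed to pass the weakest p of each control list, if the stretch was also long enough to be called. Relative to the genome-wide background this is a ratio of 3.84 and 5.88, compared with 10.27 and 10.24 measured in the esculetin libraries. The esculetin summits lay 63 and 61 bp from the start of Slc39a7, a zinc transporter gene, and the peak is shared by both promoters. The difference is one of calls, and without read counts the signal itself could not be tested. At Rxra (chr2:27676445-27763319, plus strand), the main RXR gene of myeloid cells, no start was open in any library, as at 52.8% of coding genes. Its only peak was in control replicate 2, far inside the gene at 63998 bp from the 5′ end (percentile 17.9, coverage 20).

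**Figure D2:**
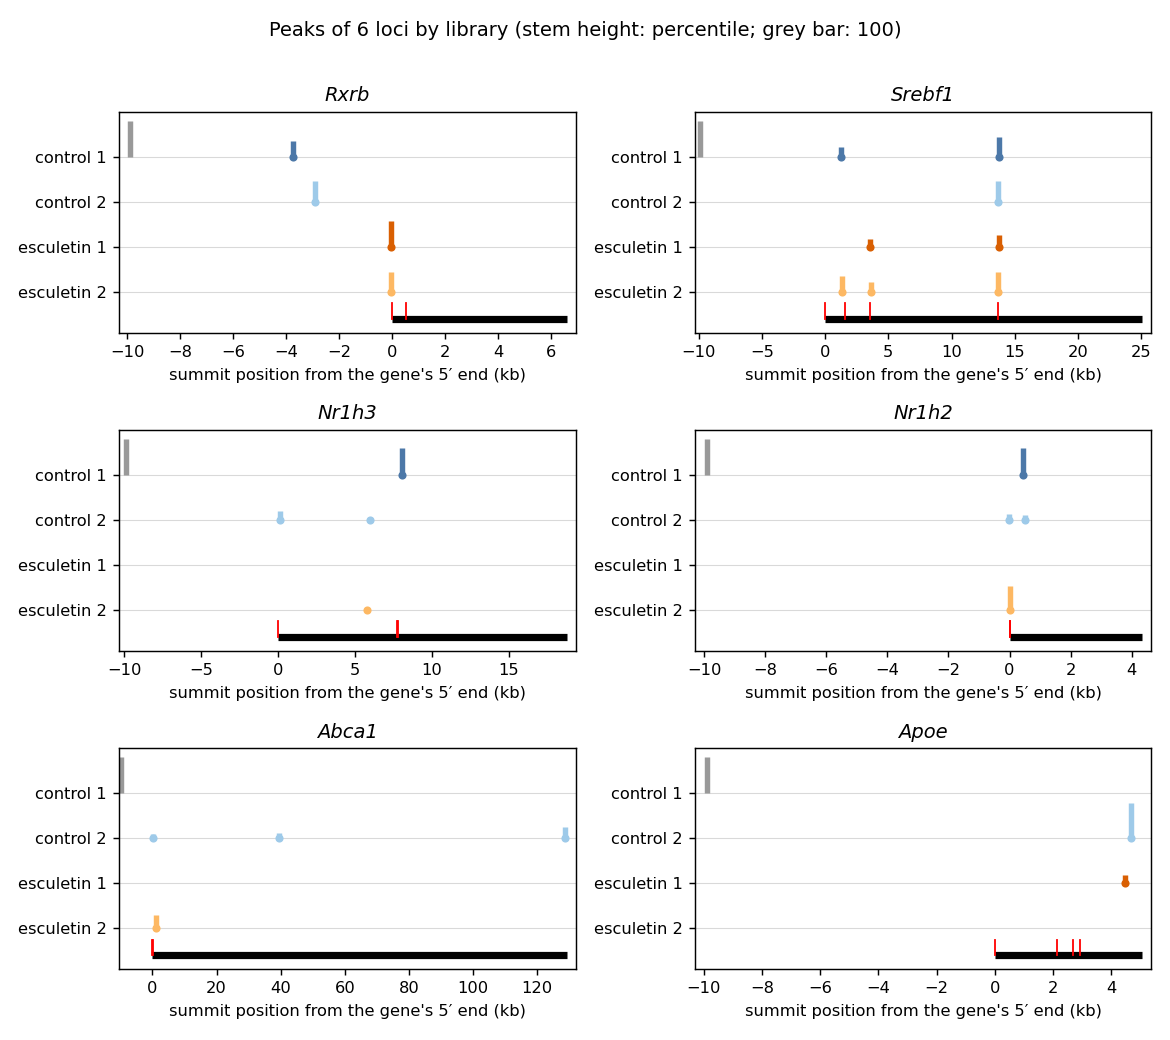
Peaks of Rxrb, Srebf1, Nr1h3, Nr1h2, Abca1 and Apoe by library, at the distance of the summit from the 5′ end of the gene (x axis, kb, negative before the gene), with stem height giving the percentile, the gene as a black bar and annotated starts as red ticks. Rxrb has esculetin peaks at its start and control peaks 2924 and 3743 bp before it, and Apoe has peaks only near its 3′ end.

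The cholesterol transporter genes had only peaks of low rank, with percentiles of 4.1 to 36.9. At Abca1 (chr4:53030789-53159988, minus strand), the promoter was open in control replicate 2 alone, with a summit 44 bp before the curated start, with a coverage of 18 and rank 24611 in its list. Esculetin replicate 2 had a peak 1079 bp after that start, just outside the promoter window, with a coverage of 22 and rank 7999. Neither control replicate 1 nor esculetin replicate 1 had any Abca1 peak. The other 2 Abca1 peaks, 39345 and 128729 bp from the 5′ end, were both in control replicate 2. At Abcg1 (chr17:31057694-31117984, plus strand) control replicate 2 was again the only library with a promoter peak, 62 bp before the start, with a percentile of 5.5 and a coverage of 19. This pattern, in which control replicate 2 was the only library with a promoter call, was seen in 2.55% of coding genes. Inside Abcg1, a region 9430 to 9602 bp from the start was called in control replicate 1 (percentile 32.4) and in esculetin replicate 2 (percentile 12.2). Further peaks at 17166 bp in control replicate 1 and at 15790 and 17914 bp in esculetin replicate 2 had percentiles of 4.1, 11.9 and 12.2 and did not overlap each other.

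Apoe (chr7:19696244-19701310, minus strand), which encodes apolipoprotein E, had no promoter peak in any library. Its strongest peak was that of control replicate 2, with a percentile of 98.4, a coverage of 135 and a width of 936 bp, and the summit lay 4668 bp from the 5′ end in the last 10% of the gene. Esculetin replicate 1 had an overlapping peak with a percentile of 23.9 and a coverage of 27, and control replicate 1 and esculetin replicate 2 had none. Thus 1 library of each group carried it, and the control value was the higher of the pair. Control replicate 2 also had the only peaks in the last 10% of Abca1 (percentile 32.0) and Mylip (percentile 0.1), so that 3 of its 15 peaks in these windows lay there and none of those of the other libraries. The overlapping Apoe peak of esculetin replicate 1 fell just outside that part. Its summit lay 584 bp before the 3′ end, against 398 bp in control replicate 2. The part that the generally higher share of such peaks in control replicate 2 had in these calls was not tested.

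Mylip and Lpcat3 had the strongest promoters of the set. For Mylip (chr13:45389742-45411940, plus strand) the percentiles were 81.4 and 87.0 with DMSO against 82.9 and 86.5 with esculetin, and both esculetin values lay between the controls. The group means of 84.2 ± 3.93 and 84.7 ± 2.54 (SD, n = 2 each) lay 0.55 percentile points apart (exact permutation test, two-sided, p = 1.0). The Mylip summit was 153 and 149 bp before the start in the controls and 91 and 56 bp before it with esculetin. The Lpcat3 summit differed the other way, at 66 and 48 bp before its start in the controls and 176 and 147 bp with esculetin. For Lpcat3 (chr6:124663094-124704716, plus strand) the percentiles were 89.6 and 92.1 in the controls and 88.8 and 85.6 with esculetin. Both esculetin values were below both control values, with means of 90.9 ± 1.74 and 87.2 ± 2.24 (SD, n = 2 each; exact permutation test, two-sided, p = 0.33). With 2 libraries in each group this test cannot give a p under 0.33. The groups overlapped when Lpcat3 was ranked by fold enrichment (88.6 and 93.1 against 88.7 and 85.0) or among promoter peaks alone (83.4 and 90.0 against 88.5 and 80.7).

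Srebf1 (chr11:60199084-60224186, minus strand) has 4 annotated starts, and the calls differed between them. The most internal one, at 60210471, had a peak in all 4 libraries, with summits between 39 bp before and 28 bp after it. Its percentiles were 57.4 and 58.7 in the controls and 34.0 and 55.8 with esculetin, so both esculetin values were lower. They averaged 58.0 ± 0.91 and 44.9 ± 15.43 (SD, n = 2 each; exact permutation test, two-sided, p = 0.33), but the difference of -13.16 percentile points was smaller than the SD of the esculetin group and shrank to -2.25 without esculetin replicate 1. Ranked by fold enrichment, Srebf1 was at 57.6 and 62.1 in the controls and at 41.7 and 63.8 with esculetin, and the groups overlapped. At the start at 60220627, both esculetin libraries had a peak, the summit 17 bp before it in replicate 1 and 36 bp past it in replicate 2, with percentiles of 23.6 and 29.1 and coverages of 25 and 22, and neither control library had one. At the start at 60222581, a peak 320 and 275 bp before it was called in control replicate 1 (percentile 27.6) and esculetin replicate 2 (percentile 43.6). At the farthest 5′ end no peak was called within 1 kb.

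These 3 genes were 3 of the 26.9% of coding genes with a promoter peak in every library. In 30.1% of those genes both esculetin percentiles were below both control percentiles, as in Lpcat3 and Srebf1. The median difference between groups was -4.46 percentile points over the 5768 such genes and -3.65 over these 3. After Benjamini-Hochberg adjustment over the 3 exact permutation tests, p was 1.0 for Mylip and 0.5 for Srebf1 and Lpcat3. A percentile depends on how many weak peaks a list holds. Among the 8581 strongest peaks of each library, the Mylip percentiles were 57.8 and 57.9 in the controls and 82.9 and 80.1 with esculetin, and those of Lpcat3 were 76.5 and 74.5 against 88.8 and 78.8. Both genes were then higher in both esculetin libraries, as were 37.5% of the 3243 coding genes called in all 4 shortened lists, and the median difference over those genes was 13.03. In the whole lists Lpcat3 had the sign of the median over coding genes and Mylip, at 0.55, did not. Among the 8581 strongest peaks no Srebf1 promoter peak was left in control replicate 2. The Srebf1 percentile was 3.3 in control replicate 1 and 34.0 and 34.7 with esculetin. The order seen for Srebf1 in the whole lists thus turned as well.

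The summit coverage over the genome-wide background, which does not depend on list length, gave overlapping groups for all 3 genes. For Mylip it was 6.91 and 11.77 with DMSO against 9.46 and 12.2 with esculetin. For Lpcat3 it was 8.14 and 13.73 in the controls and 10.87 and 11.71 with esculetin. For Srebf1 at the start open in all libraries it was 5.53 and 7.35 against 5.03 and 6.59. On this scale the spread between the control libraries exceeded the distance between the group means for each of them. The exact permutation test, two-sided, gave p = 0.67 for Mylip and Srebf1 and p = 1.0 for Lpcat3.

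**Figure D3:**
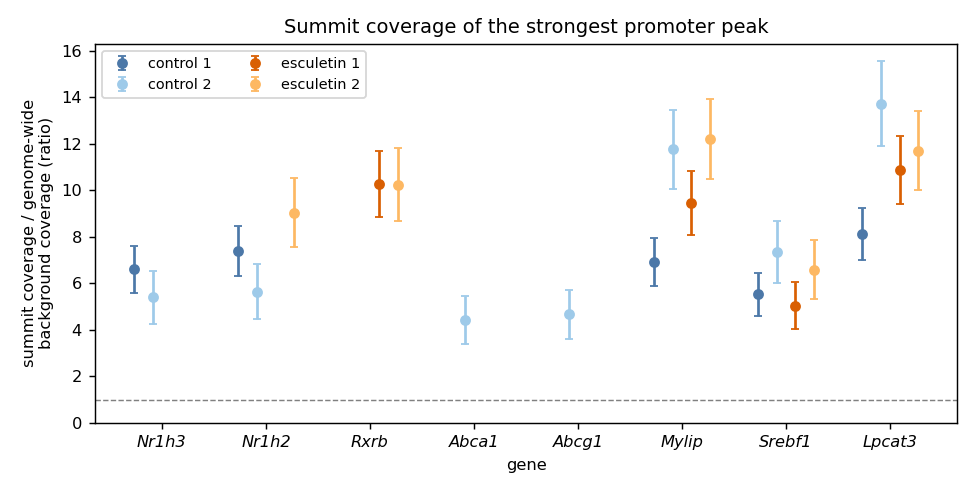
Summit coverage of the strongest promoter peak divided by the genome-wide background coverage of the library (y axis, ratio), for the 8 genes with a promoter peak in any library, with bars of the square root of the coverage, which cover counting error only, and a dashed line at the background. The libraries of the groups overlap for Mylip, Srebf1 and Lpcat3, and Rxrb shows 10.27 and 10.24 in the esculetin libraries with no control peak.

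Peaks of the 4 libraries in the windows of the 10 genes were then merged into 26 regions. All libraries shared 3 of them (17.2% of all 36037 regions of the genome were so shared), namely the starts of Mylip and Lpcat3 and the most internal start of Srebf1. A further 2 regions were called with esculetin in both replicates and never with DMSO, at Rxrb and at the Srebf1 start 60220627, whereas 0.832% of all regions were of that class. Among the 8581 strongest peaks the Srebf1 start lost this pattern, since its peak in esculetin replicate 2 had rank 8993. The opposite class held the 1 region inside Nr1h2, where the share of all regions was 13.9%, and 15 regions were called in a single library, where the share of all regions was 56.3%. Of these 15, 8 were from control replicate 2, 4 from control replicate 1, 3 from esculetin replicate 2 and none from esculetin replicate 1. In number, the windows held 10 and 15 peaks in the controls and 6 and 12 with esculetin, with means of 12.5 ± 3.54 and 9.0 ± 4.24 (SD, n = 2 each). The difference of -3.5 peaks was below the SD of the esculetin group, and it was -0.5 without esculetin replicate 1, -1.0 without control replicate 2, -6.0 without control replicate 1 and -6.5 without esculetin replicate 2. As a share of the list these peaks were 0.0513% and 0.0541% in the controls and 0.0699% and 0.0946% with esculetin.

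Promoters of 39 other genes around LXR were examined by role. In all, 18 and 25 of them were open in the controls and 16 and 18 with esculetin. These are 46.2% and 64.1% of the lists in the controls, where 40.7% and 42.1% of coding genes were open, and 41.0% and 46.2% with esculetin, where 30.1% and 37.9% were. Of the 39 genes, 10 were open in every library, 2 in both controls alone and 1 in both esculetin libraries alone, and the shares of coding genes with these patterns were 26.9%, 3.75% and 0.42%. Of the corepressor genes, the list of 6 had 4 and 6 open promoters in the control libraries and 3 and 4 with esculetin. Hdac3, a histone deacetylase gene, was open in all 4 libraries, whereas Tbl1x was open in both controls alone, with percentiles of 22.2 and 26.5. Of 6 coactivator genes, 4 and 5 were open in the controls and 3 and 4 with esculetin, and only Crebbp, which encodes the acetyltransferase CBP, was open in every library. Among 12 genes listed as other LXR targets, 3 and 6 were open in the controls and 2 in each esculetin library. This list also holds Nr1h4, the gene of the bile acid receptor FXR, which had no promoter peak in any library. Fasn, the fatty acid synthase gene, was open in all 4 libraries, with percentiles of 32.9 and 48.8 in the controls and 62.9 and 69.8 with esculetin. The share of coding genes with this order in the whole lists was not computed. Scd2 went the other way, with 62.9 and 74.5 in the controls, 44.3 in esculetin replicate 1 and no promoter peak in esculetin replicate 2. Lpl, which encodes lipoprotein lipase, had a promoter peak in both controls alone (percentiles 39.3 and 14.0).

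Of 6 genes of cholesterol efflux and intracellular transport other than the 10, 5 had a promoter peak in each control library and all 6 in each esculetin library, against 40.7% and 42.1% of coding genes in the controls and 30.1% and 37.9% with esculetin. The additional gene was Stard3, which encodes a late endosomal sterol carrier, with percentiles of 61.0 and 59.2 in the esculetin libraries and no control peak, the pattern that Rxrb and 0.42% of coding genes had. Npc1 and Npc2, which release cholesterol from lysosomes, were open throughout, as were Scarb1, Abca7 and Osbp. The percentiles of Npc1 were 77.2 and 82.8 in the controls and 82.5 and 90.1 with esculetin. Those of Scarb1 were 62.8 and 43.5 in the controls and 48.4 and 3.6 with esculetin. For each of these genes the ranges of the groups overlapped. Of 5 genes of oxysterol synthesis and turnover, 1 was open in control replicate 2 (Cyp27a1) and 1 in esculetin replicate 2 (Cyp46a1). Rxrg, the third RXR gene, had no promoter peak in any library.

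**Figure D4:**
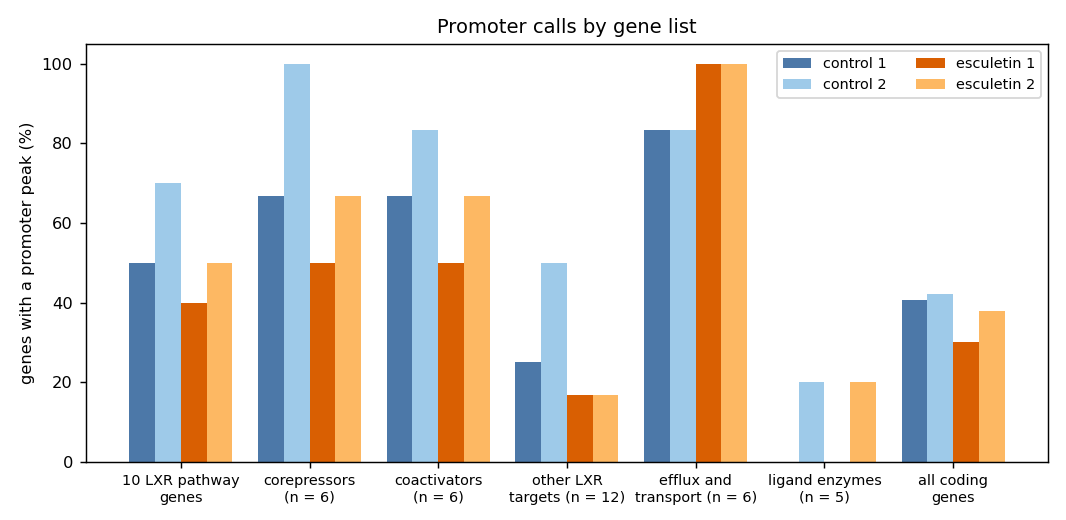
Share of genes with a promoter peak (y axis, percent) in each library for the 10 LXR pathway genes, 5 of the lists of other pathway genes and all coding genes. Control replicate 2 is the highest or joint highest bar in every list drawn except efflux and transport, where both esculetin libraries have all 6 genes.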

How the data were processed

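ATAC-seq reads were trimmed by the authors (Trim Galore) and aligned to mm10 (Bowtie2), Sambamba was used to drop duplicate and multi-mapping reads, and MACS2 called peaks library by library. The options of the peak caller are not given in the sources used here. The deposited peak lists give the fold enrichment of each summit over its local background (a linear ratio), its −log10 p and −log10 q, a score that repeats q, and the summit position. All depend on depth, so peaks were compared between libraries by presence and by percentile of −log10 p on chromosomes 1 to 19, X and Y. The lists hold no read counts, and a count model was not run. Summit coverage and background were solved from fold and p (Poisson; 100.0% of peaks with −log10 p under 60, tolerance 0.001), and the lowest background of a library was taken as its genome-wide background. The solving of coverage and the promoter calls were tested on simulated data, and the other steps were not. The simulated coverage was made with the same formulas, so that test checks the arithmetic alone.

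Genes and starts were from RefSeq tables of GRCm38.p6. Strand came from the RefSeq promoter table or, for Abcg1 and other genes not listed there, from GENCODE vM39 by symbol, which gave 21436 of 21883 coding genes (98.0%) a strand. No coordinate of the newer build was used. Starts were those of the promoter table and the gene's 5′ end. Summaries are mean ± SD. Exact permutation tests were two-sided over the 4 libraries. The genes and lists were chosen with earlier results of these data known. Some genes of the pathway lists are not reported here by name. The rule for genes of like pattern named none, because neither LXR gene had a promoter peak in all 4 libraries. Scripts ran in Python 3.11.15 with SciPy 1.17.1, NumPy 2.4.6 and pandas 2.3.3, and figures were drawn with matplotlib 3.10.9.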

Additional observations from a re-analysis of the deposited data

How the results depend on the processing

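With the 8581 strongest peaks of each library, the difference in genes with a promoter peak turned from -1.5 to 1.0, that in window peaks from -3.5 to 2.5, and that in the Lpcat3 percentile from -3.65 to 8.3. For Srebf1 no difference of means could be computed, since control replicate 2 had no promoter peak left. Its direction turned too, with 3.3 in control replicate 1 against 34.0 and 34.7 with esculetin. By summit coverage over the genome-wide background, chosen after seeing the data, the Lpcat3 difference was 0.35, a ratio and not a percentile. By fold enrichment the difference was -0.63 for Mylip, -7.09 for Srebf1 and -4.01 for Lpcat3, and among promoter peaks alone it was 5.0, -10.75 and -2.13. The Mylip difference was 23.68 with the strongest 8581 peaks. Leaving out 1 library gave -2.5 to -0.5 genes, -6.5 to -0.5 window peaks, and percentile differences of -2.23 to 3.33 for Mylip, -24.07 to -2.25 for Srebf1 and -5.24 to -2.06 for Lpcat3. The number of genes kept its direction under q 0.01 and the other promoter windows and start definitions, with -0.5 for summits within 2 kb. The number of window peaks kept its direction under q 0.01 and the other gene windows, with -7.0 for 50 kb before the 5′ end and -2.0 without peaks in the last 10% of the genes. Starts limited to gene 5′ ends or to curated starts, and windows without peaks in the last 10% of the genes, were also chosen after seeing the data. Taking differences within replicate numbers (replicate block) left the values at -1.5, -3.5, 0.55, -13.16 and -3.65, with 0.5 as the smallest p it allows. The numbers need not pair the libraries, since peak names in the esculetin lists carry 2 and 3. At the depth of these lists, absence of a peak says only that its summit stayed under the limit of the peak caller.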
